A study of Homo sapiens with 18 samples.

Results

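AMO1 is an established multiple myeloma cell line, grown from a cancer of antibody-secreting plasma cells. The comparison described here sets 3 AMO1 libraries from cells kept for 24 h in 100 nM YKL-5-124 against 3 AMO1 libraries from cells kept for 24 h in DMSO, the solvent control. These 6 of the 18 libraries of the series were taken by their labels for line, dose and time. The others were 3 libraries of AMO1 at 1000 nM for 24 h, and 9 labelled XG1, the name of a further myeloma line, under the same 3 conditions. The labels give 1 line per comparison and numbered replicates, and do not say whether the replicates were separate cultures, so p-values measure only the spread between these libraries.

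YKL-5-124 is a covalent inhibitor of the kinase CDK7. With cyclin H and MNAT1, CDK7 forms the CDK-activating kinase, which phosphorylates the kinases that drive DNA replication and mitosis. As part of the general transcription factor TFIIH, the same trio phosphorylates the tail of RNA polymerase II near the start of genes. Myeloma cells are known for their dependence on the transcription factors IRF4 and MYC, and for the protein-folding and amino acid demand of antibody secretion.

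Each library was a QuantSeq 3' library of total RNA, deposited as FPKM (fragments normalised for transcript length and library) for 26249 genes. The summed values of added spike-in RNAs were level, so the deposited scale appears to read changes against the spike-ins. Changes are given as log2(FPKM + 1) at 100 nM minus DMSO with their standard error (SE), on this deposited scale and also after each library was divided by its median-gene factor (called relative). A gene is called higher or lower, or said to rise or fall, where the adjusted p of the moderated linear model was under 0.05. Levels of different genes cannot be compared on this unit, since a 3' library does not read along the whole transcript.

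At 100 nM the AMO1 libraries lost most of the RNA of the division machinery and of the amino acid stress programme led by the transcription factor ATF4. The RNA of ribosome, splicing and proteasome genes fell by less. A small set rose, among them the largest RNA polymerase II subunit POLR2A and the plasma cell surface proteoglycan SDC1. Of 38 tested replication-dependent histone genes 3 rose and 20 fell. Of 10503 tested genes, every treated library lay under every control in 5382 and above every control in 620, so separate groups alone were common. By the model 287 of the 10503 were called higher (2.73%) and 3099 lower (29.5%), and the median tested gene changed by log2 −0.35. Relative to that median, 1473 genes were higher (14.0%) and 1781 lower (17.0%). These counts move with the libraries that set the spread. Without DMSO replicate 2 the deposited scale gave 206 higher and 1606 lower genes, and without 100 nM replicate 1 it gave 218 and 1949. The fit borrows spread from the 3 libraries at 1000 nM, of which replicate 2 stood apart, with a summed FPKM of 431965 against 683618 and 686266 in the others. Without it, an alternative chosen after seeing the data, 454 genes were higher and 4603 lower. A fit of the 6 compared libraries alone gave 435 and 4598. Unless 1000 nM replicate 2 is named, omissions of 1 library given below are among these 6. Dividing each library by its own summed FPKM in place of the median gene gave 2733 higher and 859 lower genes. In the main fit on the deposited scale the share called lower rose with the DMSO level of the genes. Of the 2101 tested genes with the lowest DMSO levels, 0.09 to 2.5 FPKM, 7.23% were lower and 7.52% higher. Of the 2101 with the highest, from 46.21 FPKM, 49.0% were lower and 0.714% higher. Shares of lists set against the 29.5% below were not adjusted for level.

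The summed FPKM of all genes was 1442943, 1548381 and 1553906 in the DMSO libraries and 922193, 983439 and 919237 at 100 nM. All treated libraries lay under all controls, at 62.2% of the DMSO mean, which gives the smallest exact two-sided permutation p possible for 3 against 3 (0.1). Fewer cells and less RNA per cell cannot be told apart in such a sum. The SNAR genes, primate-specific small noncoding RNAs with near-identical copies, made up 242454 ± 16221 FPKM of the sum in DMSO (mean ± SD, n = 3) and 110538 ± 19105 at 100 nM. Their reads cannot be assigned to single copies with certainty. The 86 ribosomal protein genes made up 495804 ± 25832 and 309850 ± 10534, which is 62.5% of DMSO, and the remaining genes kept 67.1%.

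**Figure D1:**
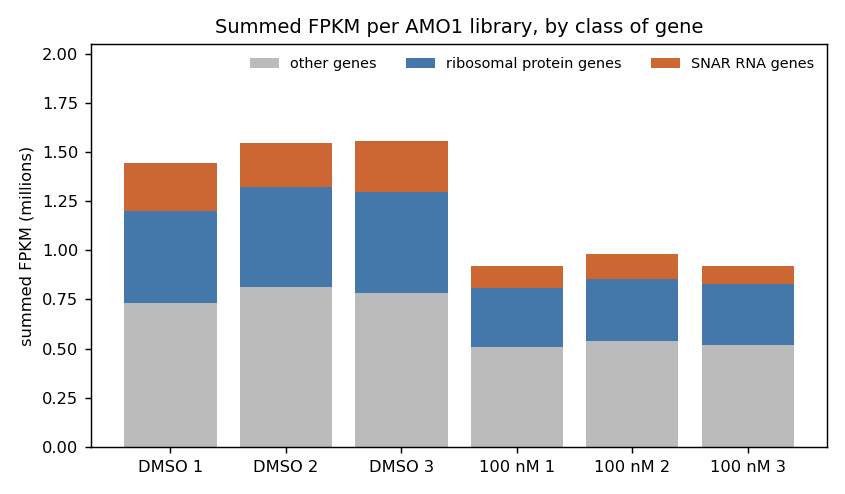
Summed FPKM of each of the 6 libraries (vertical axis), stacked by SNAR RNA genes, ribosomal protein genes and all other genes. The 3 libraries at 100 nM reach 919237 to 983439 FPKM and the 3 in DMSO 1442943 to 1553906, and each of the 3 classes is smaller at 100 nM.

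The libraries carried the markers of plasma cells. SDC1, JCHAIN, TNFRSF17, MZB1, XBP1, IRF4, PRDM1, CD38 and SLAMF7 all passed the filter on low values. Markers of other cells were mostly at the floor: 0 of 14 myeloid genes were tested, 3 of 15 T and NK cell genes, 5 of 15 stromal and epithelial genes and 6 of 15 erythroid genes. The embryonic globin HBE1 was an exception, at 103, 116 and 99.3 FPKM in DMSO and 68.4, 55.5 and 66.8 at 100 nM (log2 −0.73, SE 0.19, adjusted p = 0.012; relative −0.30, adjusted p = 0.13). Its adjusted p was 0.0746 without 100 nM replicate 2 and 0.0667 without DMSO replicate 2. The erythroid regulator GATA1 stayed under 1 FPKM in all 6 libraries. VIM, an intermediate filament gene on the stromal list that blood cells also express, was at 404 FPKM in DMSO and 198 at 100 nM.

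CDK7 itself was at 15.4, 16.2 and 19.0 FPKM in DMSO and 11.6, 12.2 and 9.49 at 100 nM. The 2 groups did not overlap, and the same held in that direction for 5382 of the 10503 tested genes. The fall to 65.7% of DMSO passed on the deposited scale (log2 −0.57, SE 0.19, adjusted p = 0.036). It was about that of the median gene (relative −0.16, adjusted p = 0.53). Leaving out any 1 of the 6 libraries gave a deposited adjusted p of 0.0684 to 0.15, and the fit of the 6 libraries alone gave 0.00807. Its partners were at 65.5% of DMSO for cyclin H (CCNH, −0.58, adjusted p = 0.081) and 62.7% for the assembly factor MNAT1 (−0.62, adjusted p = 0.093). Both passed in the fit of the 6 libraries alone (deposited adjusted p of 0.00178 and 0.00393). Of the 9 tested genes of CDK7 and TFIIH, 3 fell, or 33.3%, near the 29.5% of all tested genes. These were CDK7, GTF2H3 (5.33 to 2.17 FPKM, relative −0.63, adjusted p = 0.0033) and GTF2H4 (13.5 to 7.13 FPKM, relative −0.41, adjusted p = 0.041). Leaving out 1 library left 1 or 2 of these 3 calls, with 1 without DMSO replicate 2. The DNA helicase subunit ERCC3 was at 39.0 FPKM in DMSO and 31.8 at 100 nM (adjusted p = 0.38).

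Among the 12 genes of RNA polymerase II subunits, 1 rose and 5 fell (41.7%, against 29.5% of all tested genes). Of these falls 1 was left without 100 nM replicate 1 and at most 2 without any other single library. POLR2A, which carries the tail that CDK7 phosphorylates, stood at 51.4, 62.5 and 50.2 FPKM in DMSO and at 111, 100 and 102 at 100 nM. Every treated library was above every control (log2 0.93, SE 0.21, adjusted p = 0.0057; relative 1.36, adjusted p = 5.5e-06). POLR2H, a small shared subunit, moved the other way, from 188, 200 and 203 FPKM to 86.0, 76.4 and 89.7 (−1.22, SE 0.22, adjusted p = 0.0012; relative −0.79). Of 30 tested factors of pausing and elongation, 11 fell (36.7%, against 29.5% of all tested genes) and 0 rose. Relative to the median gene, however, 7 were higher and 8 lower. Leaving out 1 library gave 6 to 8 falls, fewest without DMSO replicate 2, and 3 to 6 relative rises, fewest without 100 nM replicate 3. The histone chaperones of elongation fell, SSRP1 from 203 to 79.7 FPKM and SUPT16H from 113 to 53. HEXIM1, which holds the elongation kinase P-TEFb inactive, was at 11.8 ± 1.26 FPKM in DMSO and 16.6 ± 2.51 at 100 nM and passed on the relative scale alone (0.85, adjusted p = 0.0015; deposited 0.45, adjusted p = 0.15). CDK9, the kinase of P-TEFb, was at 4.21 and 4.79 FPKM. Of 30 tested Mediator subunits 9 fell, a share near the 29.5% of all tested genes, and MED30 changed most, from 37.0 to 12.0 FPKM (−1.54, adjusted p = 0.0011). Without DMSO replicate 2 the 9 falls became 1, and without any other single library they were at most 4.

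Genes that carry cells into and through mitosis fell as whole lists. All 15 tested genes of mitotic entry and all 13 of the mitotic kinases and chromosomal passenger complex were lower on both scales, with median changes of −1.75 and −2.08. Of 49 genes of the kinetochore, spindle and mitotic kinesins, 46 fell (relative 44) and 0 rose, with a median of −1.73. These lists were drawn up with earlier results of these data known, so the counts describe them and are no independent evidence.

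CDK1, the kinase that starts mitosis, was at 107, 113 and 97.5 FPKM in DMSO and at 13.6, 13.8 and 15.5 at 100 nM, or 13.5% of DMSO (log2 −2.80, SE 0.20, adjusted p = 1e-06; relative −2.37). Its small binding partner CKS1B went from 1658, 1918 and 1753 FPKM to 246, 236 and 264 (−2.83, SE 0.21, adjusted p = 1.3e-06). Both stood far below the whole DMSO range in every treated library. Cyclin B1 (CCNB1), which activates CDK1, kept 24.9% of its DMSO level, the cyclin A gene CCNA2 went from 45.7 to 9.12 FPKM and the kinase PLK1 from 62.4 to 10.1. The inhibitory kinase WEE1 fell with them (10.2 to 2.37 FPKM, −1.75). AURKB, the kinase of the chromosomal passenger complex, went from 424, 502 and 463 FPKM to 79.6, 65.8 and 72.4 (−2.66, SE 0.20, adjusted p = 1.6e-06), and its partner BIRC5 (survivin) from 74.6 to 16.6. At the kinetochore, NUF2 changed by log2 −2.79 and the centromeric histone CENPA by −2.34. TOP2A, which untangles sister DNA, fell to 24.6, 24.8 and 32.3 FPKM from 195, 212 and 176 (−2.80, SE 0.21), while its paralogue TOP2B, which is not tied to division, was at 26.7 and 23 FPKM (−0.21, adjusted p = 0.48). Among the genes that end mitosis, CDC20 went from 92.2 to 17.6 FPKM and UBE2C from 1143 to 170, whereas FZR1, which takes the place of CDC20 in G1, was at 3.95 and 4.04 FPKM. Tubulins and stathmin fell in 13 of 16 cases while TUBG2 rose (adjusted p = 0.0253, and over the threshold without replicate 2 or 3 at 100 nM or replicate 1 or 3 in DMSO, at most 0.104), and TUBB2B was at 70.6, 76.7 and 69.2 FPKM in DMSO and at 5.55, 5.21 and 5.69 at 100 nM (−3.50, SE 0.19, adjusted p = 7.4e-08).

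The upstream sequences of CKS1B and CDK1 are shown because they hold elements that many promoters of division genes share. In capitals are a CHR element (TTTGAA), NF-Y boxes (CCAAT) and, where present, E2F sites (TTTGGCGC, TTTCCCGC, TTTGCCGC or TTTCGCGC), each searched on both strands. The sequences are the 250 bases before the RefSeq start (GRCh38.p14), CKS1B at chr1:154974431-154974680 and CDK1 at chr10:60778081-60778330, both on the plus strand.
CKS1B: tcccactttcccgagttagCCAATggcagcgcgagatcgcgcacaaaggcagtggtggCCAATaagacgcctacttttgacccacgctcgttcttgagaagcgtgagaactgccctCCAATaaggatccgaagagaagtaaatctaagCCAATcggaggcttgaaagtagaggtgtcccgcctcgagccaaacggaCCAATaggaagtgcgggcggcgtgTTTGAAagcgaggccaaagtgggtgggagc
CDK1: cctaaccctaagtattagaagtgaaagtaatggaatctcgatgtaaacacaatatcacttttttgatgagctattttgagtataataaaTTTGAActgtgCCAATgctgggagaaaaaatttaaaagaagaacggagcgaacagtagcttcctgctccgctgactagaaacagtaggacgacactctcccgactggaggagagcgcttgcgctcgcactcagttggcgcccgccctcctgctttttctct
CKS1B had a CHR element 30 bases before its start and 5 NF-Y boxes. CDK1 had a CHR element 161 bases and an NF-Y box 150 bases before its start, and an E2F site 19 bases after it, outside the stretch shown. Over the 300-base windows, from 250 bases before to 50 after the start, a CHR element stood in 63.0% of the 46 kinetochore and spindle promoters and 57.1% of the 14 mitotic entry promoters in the table. It stood in 9.68% of the 8471 promoters of all tested genes and in 12.3% of those called lower. A match gives the presence of these letters only.

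The DNA replication machinery fell alongside. Of 24 genes that license origins or form the MCM helicase, 22 were lower and 0 higher (relative 21 and 0; median −1.66), and of 34 genes of the replication fork 31 were lower and 1 higher. CDT1, which loads the helicase, was at 90.3, 99.3 and 102 FPKM in DMSO and at 16.2, 13.3 and 17.4 at 100 nM (log2 −2.57, SE 0.18, adjusted p = 1.1e-06). Its inhibitor geminin (GMNN) fell too, from 66.3 to 14.3 FPKM. The helicase subunit MCM7 went from 161 to 29.8 FPKM, the origin factor CDC6 from 37.9 to 8.01 and the sliding clamp PCNA from 190 to 45.4. The gene that ran against the list was POLD4, the smallest subunit of polymerase delta. It was at 7.87, 8.35 and 7.25 FPKM in DMSO and at 17.0, 17.2 and 19.8 at 100 nM, above all controls in every treated library (1.11, SE 0.21, adjusted p = 0.0015; relative 1.48). E2F sites stood in 47.6% of the 21 licensing promoters and 30.0% of the 30 fork promoters, against 5.80% of all tested genes.

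Supply and control of DNA synthesis changed in the same direction. RRM2, the regulated subunit of ribonucleotide reductase, was at 186, 205 and 199 FPKM and then at 37.6, 39.3 and 46.8 (−2.23, SE 0.19, adjusted p = 4.4e-06). Thymidylate synthase (TYMS) kept 19.8% of its DMSO level and thymidine kinase TK1 went from 48.0 to 13.5 FPKM, while RRM2B, the subunit used outside S phase, was at 13.7 and 10.2 FPKM (adjusted p = 0.18). Of the transcription factors of this programme, E2F1 fell from 35.8, 44.1 and 34.5 FPKM to 8.07, 5.92 and 10.9 (−2.10, SE 0.25, adjusted p = 4.4e-05; relative −1.67). FOXM1, which drives mitotic genes, went from 15.1 to 3.22 FPKM and MYBL2 from 241 to 83.5. CDK2 fell from 132 to 43.0 FPKM and CDK4 from 55.5 to 25.4. Cyclin D1 (CCND1) was at 7.16, 8.98 and 7.27 FPKM and at 5.51, 4.84 and 6.88, groups that did not overlap but differed by less than the threshold (−0.39, adjusted p = 0.15). In homologous recombination and the Fanconi pathway 34 of 40 tested genes fell and 0 rose (relative 28), with BRCA1 from 15.3 to 4.31 FPKM. The damage kinase ATM was at 1.81 and 1.88 FPKM. The DNA methylation guide UHRF1 (8.60 to 1.59 FPKM) and the Polycomb methyltransferase EZH2 (24.0 to 9.35) fell, whereas EZH1 was at 4.84 and 4.70.

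Histone genes split. Of 63 genes of the replication-dependent histones, 38 were tested, and of these 20 fell and 3 rose (relative 13 and 5). HIST1H4C, a histone H4 gene, was at 2123, 2040 and 2437 FPKM in DMSO and at 489, 591 and 454 at 100 nM (log2 −2.11, SE 0.25, adjusted p = 3.8e-05). HIST2H2BE, a histone H2B gene known to give polyadenylated RNA, was at 12.5, 13.9 and 12.0 FPKM and then at 41.3, 47.0 and 51.3 (1.78, SE 0.21, adjusted p = 3.7e-05; relative 2.18). All treated values of HIST2H2BE lay above all controls. HIST1H2BK rose from 72.6 to 176 FPKM (1.26, adjusted p = 0.0025) and HIST1H3G from 9.55 to 20.0 (1.01, adjusted p = 0.0086). SLBP, which binds the stem-loop of histone messages, went from 27.7 to 8.81 FPKM and the replacement histone H2AFZ from 5279 to 1087. QuantSeq starts from polyadenylated ends, so histone messages that end in a stem-loop may be read poorly, and histone genes are close copies of each other.

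**Figure D2:**
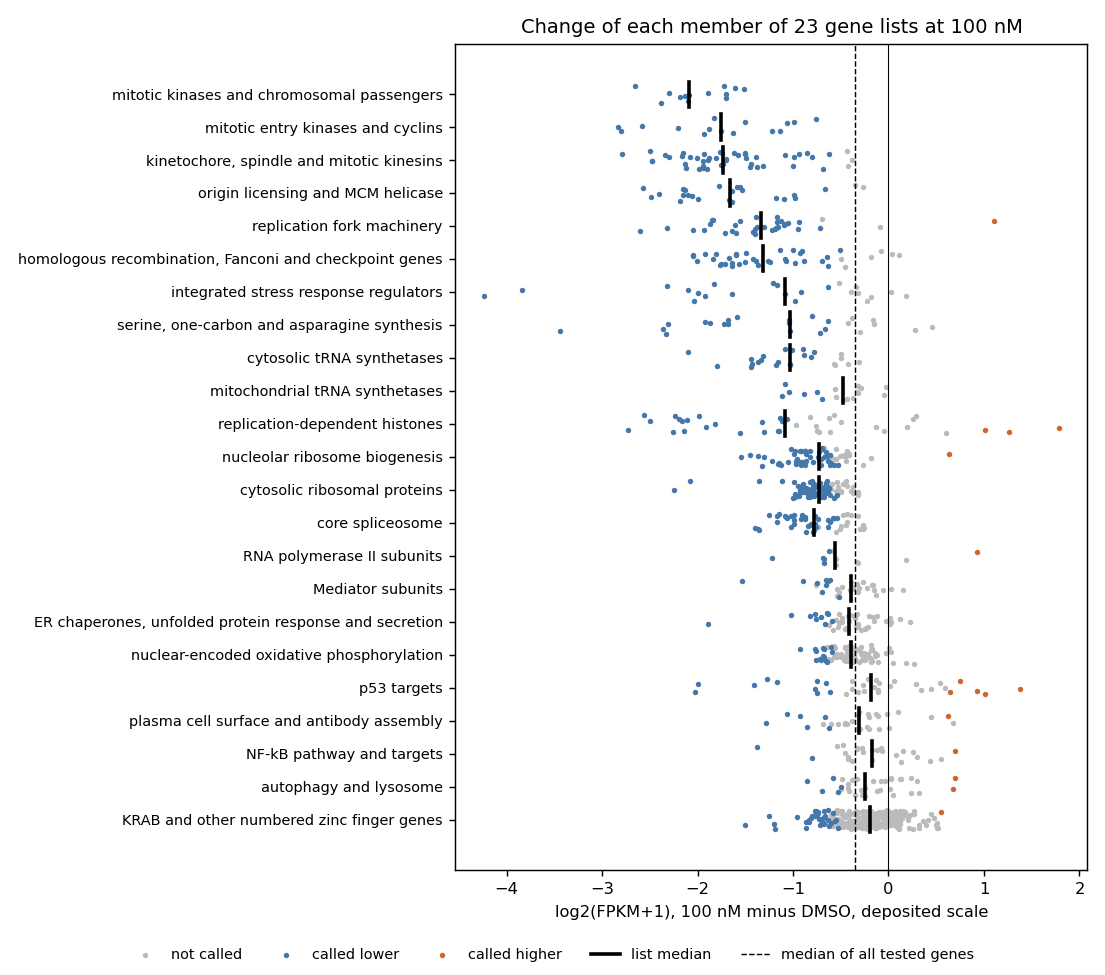
Change at 100 nM (horizontal axis, log2(FPKM + 1), 100 nM minus DMSO, deposited scale) of every tested member of 23 gene lists (rows), with 1 point per gene coloured by its call, a bar at each list's median, and a dashed line at the median of all tested genes, −0.35. The mitotic, licensing and fork lists have medians of −1.34 to −2.08, the stress response, serine and cytosolic tRNA synthetase lists −1.03 to −1.09, and p53 targets, NF-kB genes and zinc finger genes −0.17 to −0.20.

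The integrated stress response is a programme in which phosphorylated eIF2 favours translation of ATF4, and ATF4 then induces genes for amino acid supply. In the AMO1 libraries 15 of the 23 tested regulators of this response fell and 0 rose (relative 14 and 1; median −1.09). CHAC1, which degrades glutathione, fell from 57.9, 72.0 and 56.7 FPKM to 2.59, 1.82 and 2.67. That is 3.8% of the DMSO level (log2 −4.23, SE 0.19, adjusted p = 1.7e-08; relative −3.79). INHBE, an activin subunit, fell to a similar percentage of DMSO, from 24.7, 31.7 and 30.4 FPKM to 0.950, 0.998 and 1.32. ATF4 itself was at 606, 645 and 601 FPKM in DMSO and at 145, 135 and 170 at 100 nM (−2.04, SE 0.21, adjusted p = 1.4e-05; relative −1.60). Its partners ATF3 (6.41 to 1.09 FPKM), CEBPB (99.2 to 25.7) and DDIT3 (94.1 to 41.2) fell, as did the feedback pseudokinase TRIB3 (105 to 33.2) and the mTOR inhibitors DDIT4 (846 to 197) and SESN2 (102 to 24.7). The members that did not follow included PPP1R15A, the phosphatase subunit that ends the response, at 57.6 and 50.8 FPKM (adjusted p = 0.59), and ATF5 at 8.25 and 8.55 (adjusted p = 0.94).

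The upstream sequence of CHAC1 is shown because it holds the ATF4 composite element (TGATGNAA, here on the minus strand), in capitals with its NF-Y boxes. It is the 250 bases before the RefSeq start at chr15:40953221-40953470 (GRCh38.p14, plus strand).
CHAC1: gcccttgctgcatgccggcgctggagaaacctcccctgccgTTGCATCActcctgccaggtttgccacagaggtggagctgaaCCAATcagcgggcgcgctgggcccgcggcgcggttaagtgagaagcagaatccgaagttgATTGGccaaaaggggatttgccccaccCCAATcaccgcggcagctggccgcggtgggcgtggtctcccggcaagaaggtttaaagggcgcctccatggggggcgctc
The ATF4 element lay 209 bases before the start and 3 NF-Y boxes lay 167, 107 and 80 bases before it. Such an element stood in 35.3% of the 17 promoters of cytosolic tRNA synthetases in the table, 18.8% of 16 serine and asparagine synthesis promoters and 3 of the 20 promoters of the regulators. It stood in 1.62% of all tested genes, 2.32% of those called lower and 1.39% of those called higher.

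The enzymes and transporters that supply amino acids fell with the regulators. Of 24 tested genes of serine, one-carbon and asparagine synthesis 17 were lower and 0 higher. PSAT1, an enzyme of serine synthesis, was at 198, 223 and 229 FPKM in DMSO and at 16, 20.9 and 20.5 at 100 nM (log2 −3.44, SE 0.22, adjusted p = 3.8e-07; relative −3.01). PHGDH, the first enzyme of that route, went from 20.1 to 3.21 FPKM, asparagine synthetase ASNS from 191 to 36.5 and the mitochondrial folate enzyme MTHFD2 from 439 to 120. CTH, which makes cysteine, kept 6.98% of its DMSO level, at 1.98, 3.26 and 3.12 FPKM against 35.7, 42.9 and 41.4. Among 19 tested amino acid transporters 11 fell and 1 rose. The cystine transporter SLC7A11 went from 3.74 to 0.403 FPKM, its heavy chain SLC3A2 from 144 to 35.5, the glutamine transporter SLC1A5 from 238 to 44.4 and the glycine transporter SLC6A9 from 6.51 to 0.261. The transporter that rose was SLC43A2, from 11.4 to 21.4 FPKM (0.85, adjusted p = 0.0081).

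Aminoacyl-tRNA synthetases differed by compartment in their counts. Of 24 cytosolic enzymes and partners 18 fell, with a median of −1.03, and of 17 mitochondrial enzymes 6 fell, with a median of −0.48. That is 75.0% and 35.3%, against 29.5% of all tested genes. The glycyl enzyme GARS went from 93.2 to 21.0 FPKM and the alanyl enzyme AARS from 46.4 to 12.7. Among the mitochondrial enzymes CARS2 changed most (37.7 to 16.8 FPKM, −1.11, adjusted p = 0.0013). The difference between the lists was not tested.

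**Figure D3:**
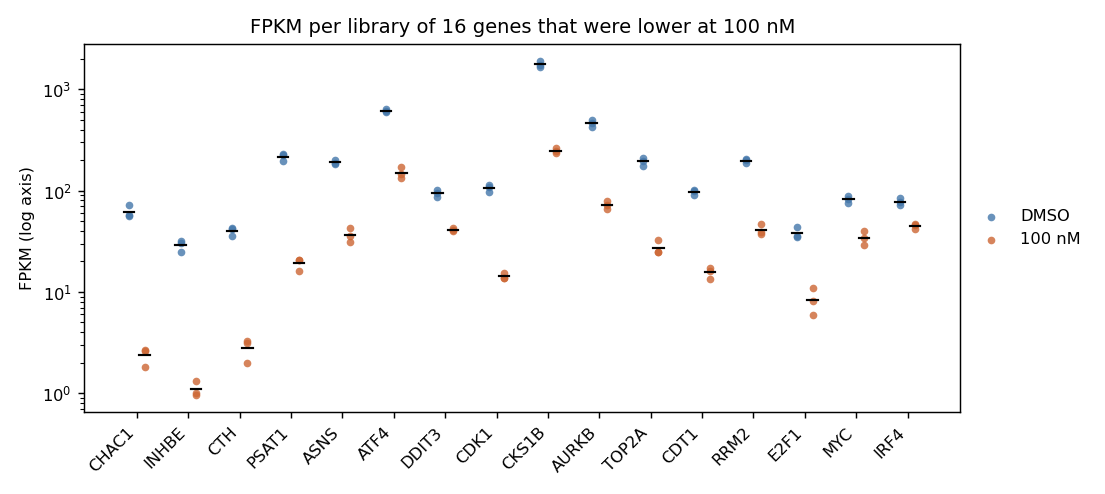
FPKM on a log axis of 16 genes that were called lower, with 1 point per library (3 DMSO, 3 at 100 nM) and a line at each group mean. The groups of all 16 genes are apart, from IRF4 at 57.8% of its DMSO level to INHBE at 3.77%.

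Genes of growth fell by smaller amounts. MYC was at 75.0, 82.5 and 88.9 FPKM in DMSO and at 39.5, 34.0 and 28.8 at 100 nM, so the groups were apart (log2 −1.25, SE 0.35, adjusted p = 0.015). Its change relative to the median gene did not pass (−0.82, adjusted p = 0.055), though it did in the fit of the 6 libraries alone (0.00528). Of 65 tested genes of nucleolar ribosome biogenesis 46 fell and 1 rose (relative 29 and 1; median −0.72). NPM1 was at 802, 919 and 806 FPKM and then at 269, 274 and 319 (−1.55, SE 0.21, adjusted p = 0.00014), and the box C/D methyltransferase FBL went from 750 to 344. UTP3 rose from 64.8 to 100.02 FPKM (0.63, adjusted p = 0.04; relative 1.06, adjusted p = 1.5e-05), and leaving out any 1 library gave a deposited adjusted p of 0.0582 to 0.152.

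Most ribosomal protein genes fell. Of 82 tested, 65 fell and 0 rose, with a median of −0.73 and a range of −2.24 to −0.32, and relative to the median gene 43 fell. RPLP0 was at 8467, 9754 and 8417 FPKM and at 5245, 5171 and 5734 (−0.72, SE 0.19, adjusted p = 0.01). The lowest values were those of RPL17, from 261, 105 and 188 FPKM to 41.6, 69.0 and 15.5 (−2.24, SE 0.64, adjusted p = 0.016; relative −1.81, adjusted p = 0.086), and of RPL22L1, a paralogue of RPL22, from 327 to 76.7 FPKM (−2.08, adjusted p = 1.6e-05). RPL17 overlaps a readthrough gene in the RefSeq annotation, so its reads cannot be assigned with certainty. Without DMSO replicate 2 the adjusted p of RPLP0 was 0.0609, and 24 of the 82 ribosomal protein genes and 24 of the 65 nucleolar genes passed. Without any other single library up to 51 and 37 passed, and the 43 relative falls of ribosomal protein genes became 27 without DMSO replicate 1. The core spliceosome had 37 of 53 lower, the splicing regulators 27 of 37, with HNRNPA1 from 272 to 77.3 FPKM, the proteasome 30 of 49, and mitochondrial ribosomal proteins 44 of 76. Without DMSO replicate 2 these 4 counts were 22, 20, 8 and 21, while the falls over all genes went from 3099 to 1606. Nuclear genes of oxidative phosphorylation had 14 of 76 lower (18.4%, against 29.5% of all tested genes) and, relative to the median gene, 10 higher and 6 lower. Without 100 nM replicate 1 the 14 became 0. Omitting any other 1 of the 6 compared libraries left at most 4 of these falls. The relative counts dropped to 4 higher without DMSO replicate 2 and 0 lower without DMSO replicate 1. In the fit of the 6 libraries alone 52 members fell, while 4598 genes were lower in all. Without 1000 nM replicate 2 these were 52 and 4603.

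Plasma cell genes did not move as 1 group. Of 30 tested genes of the plasma cell surface and antibody assembly 1 rose and 6 fell (20.0%, against 29.5% of all tested genes). Relative to the median gene 8 were higher and 2 lower. Leaving out 1 library left 2 to 4 falls, fewest without DMSO replicate 2, and 5 to 8 relative rises, fewest without DMSO replicate 1. SDC1, the proteoglycan CD138 that marks plasma cells, was at 4850, 5440 and 4909 FPKM in DMSO and at 8095, 7298 and 8012 at 100 nM. All treated libraries were above all controls (log2 0.62, SE 0.19, adjusted p = 0.021; relative 1.06, adjusted p = 8.8e-06). Its deposited adjusted p was 0.0452 without 100 nM replicate 2 and 0.0528 to 0.0775 without any other single library. In the fit of the 6 libraries alone it was 0.000245. TNFRSF17, the receptor BCMA, fell from 443 to 286 FPKM (−0.63, adjusted p = 0.039) and the antibody joining chain JCHAIN from 1924 to 1209 (−0.67, adjusted p = 0.031), and neither passed relative to the median gene. Leaving out any 1 library ended both calls (adjusted p of 0.0641 to 0.141 for TNFRSF17 and 0.061 to 0.107 for JCHAIN). With the 6 libraries alone both passed on the deposited scale (adjusted p of 0.000686 and 0.000117). IRF4, on which myeloma cells depend, was at 71.9, 84 and 76.7 FPKM and then at 46.2, 41.8 and 46.5, or 57.8% of DMSO (−0.78, SE 0.21, adjusted p = 0.013; relative −0.34, adjusted p = 0.0092). Its deposited adjusted p was 0.0569 without 100 nM replicate 2, 0.0648 without DMSO replicate 2 and 0.000228 with the 6 libraries alone. PRDM1, the regulator that sets plasma cell identity, had overlapping groups, at 13.9, 18 and 16.5 FPKM and at 15.6, 16.1 and 16.7 (relative 0.41, adjusted p = 0.0048). CD38 was at 25.5 ± 0.839 and 25.6 ± 2.57 FPKM. The chemokine receptor CXCR4 fell from 157 to 74.7 FPKM and the transcription factor KLF2 from 173 to 64.2.

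The count of secretory pathway genes called lower depended on the libraries fitted. Of 46 tested genes of the endoplasmic reticulum and the unfolded protein response 10 fell (21.7%, against 29.5% of all tested genes) and 0 rose. HERPUD1, a membrane protein of protein degradation, went from 190, 203 and 215 FPKM to 54.7, 52.4 and 54.7 (log2 −1.89, SE 0.25, adjusted p = 0.0001; relative −1.46), and the chaperone HSPA5 from 778 to 382 (−1.02, adjusted p = 0.0024). XBP1, the transcription factor of this response, was at 214 and 159 FPKM (adjusted p = 0.14) and HSP90B1 at 1194 and 955 (adjusted p = 0.28). Without 100 nM replicate 1 the 10 falls became 2, and without any other 1 of the 6 compared libraries they were at most 6. In the fit of the 6 libraries alone 30 members fell, while 4598 genes were lower in all. Without 1000 nM replicate 2 these were 31 and 4603. Folding chaperones of the cytosol and mitochondria fell in 25 of 35 cases, with HSPD1 from 589 to 222 FPKM and HSP90AA1 from 410 to 168. Of 36 tested cholesterol synthesis and SREBP genes 16 fell (44.4%, against 29.5% of all tested genes) and 1 rose. The sensor INSIG1 went from 164 to 52.9 FPKM. The 16 became 5 without DMSO replicate 2 and at most 12 without any other single library. The sterol reductase TM7SF2 ran against them, at 6.09, 8.07 and 6.36 FPKM in DMSO and 17.7, 15.6 and 18.3 at 100 nM (1.22, SE 0.23, adjusted p = 0.0014).

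Genes of the BCL2 family fell or were not called on the deposited scale, and the survival genes MCL1 and BCL2 were among those not called. PMAIP1 (NOXA), which antagonises MCL1, was at 39.1, 50 and 42.5 FPKM in DMSO and at 9.88, 9.47 and 10.6 at 100 nM (log2 −2.03, SE 0.21, adjusted p = 1.4e-05; relative −1.60). BBC3 (PUMA) went from 254, 292 and 279 FPKM to 105, 108 and 96.7 (−1.41, SE 0.19, adjusted p = 0.00014) and HRK from 8.83 to 2.18. Of 16 tested BCL2 family genes 6 fell (37.5%, against 29.5% of all tested genes) and 0 rose. MCL1, the survival protein that myeloma cells rely on, was at 895, 969 and 958 FPKM and at 1300, 1197 and 1175. Its treated libraries were all above the controls, yet the change did not pass on the deposited scale (0.38, SE 0.21, adjusted p = 0.18) and passed relative to the median gene (0.82, adjusted p = 0.00014). In the fit of the 6 libraries alone it passed on both (deposited adjusted p = 0.00297, relative 0.000498). BCL2 was at 17.7 and 12.7 FPKM (adjusted p = 0.13) and BCL2L11 (BIM) at 20.1 and 21.9 (adjusted p = 0.71).

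The p53 target list held members that rose and members that fell. Of 34 tested, 5 were higher and 10 lower (relative 12 and 8; median −0.18), and the share lower was near the 29.5% of all tested genes. Without 100 nM replicate 2 the 8 relative falls became 5. The genes that rose were TNFRSF10D, a decoy receptor for TRAIL (2.53, 2.76 and 1.84 FPKM in DMSO; 7.42, 6.75 and 9.16 at 100 nM; log2 1.38, SE 0.21, adjusted p = 0.00037), SERTAD1 (16.2 to 33.5), SESN1 (13.5 to 23.2), ZMAT3 (2.43 to 5.49) and TP53I3 (2.16 to 3.98). Leaving out 1 library left 3 or 4 of the 5 rises and 5 to 8 of the 10 falls, fewest without 100 nM replicate 1 and DMSO replicate 2. Among the rises, SESN1 lost its call without replicate 1 or 2 at 100 nM or replicate 1 or 3 in DMSO (adjusted p of at most 0.0748), and TP53I3 without replicate 1 or 3 at 100 nM or replicate 2 or 3 in DMSO (at most 0.179). SESN2, PMAIP1 and BBC3 fell as given above, and MDM2, a ubiquitin ligase, went from 94.3 to 41.2 FPKM. CDKN1A (p21), a cell cycle inhibitor, had overlapping groups, at 161, 177 and 148 FPKM and at 135, 121 and 150 (−0.25, SE 0.23, adjusted p = 0.41; relative 0.18, adjusted p = 0.19).

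Signalling genes changed singly. IL6R, the receptor for the myeloma growth factor IL6, fell from 7.80, 8.23 and 7.85 FPKM to 2.19, 1.36 and 1.32 (log2 −1.79, SE 0.19, adjusted p = 1.5e-05; relative −1.39). Of 25 tested NF-kB genes 1 rose and 2 fell (8.0%, against 29.5% of all tested genes). Leaving out 1 library gave 0 rises and 1 to 3 falls, fewest without 100 nM replicate 1. The 2 chemokines among them went opposite ways, CCL3 from 786, 836 and 929 FPKM to 307, 309 and 366 (−1.38, SE 0.23, adjusted p = 0.00072) and CCL5 from 96.3, 103 and 96.0 to 158, 163 and 158 (0.70, SE 0.21, adjusted p = 0.023). Without any 1 library the adjusted p of CCL5 was 0.0638 to 0.0761, and with the 6 libraries alone it was 0.000124. The NF-kB inhibitor NFKBIA was at 173 and 206 FPKM (adjusted p = 0.39; relative 0.69, adjusted p = 0.00012). Of 23 interferon-stimulated genes 1 rose, ISG15 (61.8 to 93.2 FPKM, adjusted p = 0.049), and 3 fell, HERC5, IFITM1 and TRIM25. The call of ISG15 ended without any 1 library (adjusted p of 0.0651 to 0.161), and that of IFITM1 ended without 100 nM replicate 3 (0.114) or DMSO replicate 2 (0.139). Among immediate-early genes EGR1 fell from 10.7 to 4.93 FPKM and IER2 from 367 to 208, while JUNB was at 34.3 and 40.2 (adjusted p = 0.48). In autophagy and the lysosome 2 genes rose and 5 fell of 35 tested (14.3% lower, against 29.5% of all tested genes). Relative to the median gene 13 were higher and 1 lower. The 5 falls became 0 without 100 nM replicate 1, and the 2 rises became 0 without 100 nM replicate 2 and at most 1 without any other library. The 1 relative fall became 0 without 100 nM replicate 1. The protease CTSB rose from 14 to 22.8 FPKM (adjusted p = 0.029, and 0.0596 to 0.118 without any 1 library; relative 1.08) and the autophagy receptor SQSTM1 was at 215 and 264 (relative 0.73, adjusted p = 0.00011). ABCB1, the drug efflux pump, was at 2.67, 2.97 and 2.91 FPKM and at 2.40, 2.42 and 2.69, overlapping groups with a change under the threshold on both scales (−0.14, adjusted p = 0.55).

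Genes were ranked whose groups did not overlap and whose higher mean reached 5 FPKM. Small nucleolar and several other classes of small RNA were left out by symbol. Over all tested genes changes reached log2 7.55 and −6.39. Of the ranked genes, the 2 with the largest rises were near the floor in DMSO. ENDOG, a mitochondrial endonuclease, was at 1.11, 0.869 and 0.114 FPKM in DMSO and at 21.7, 17.1 and 26.3 at 100 nM (log2 3.77, SE 0.35, adjusted p = 6.2e-06). SCO2, a copper chaperone of cytochrome oxidase, was at 0.221, 2.12 and 0.111 FPKM and then at 17.9, 30.9 and 17.0 (3.77, SE 0.39, adjusted p = 1.5e-05). In both genes no treated library came near the controls. PINK1, the kinase that marks damaged mitochondria, rose from 4.94 to 14.5 FPKM (1.39, adjusted p = 0.00085), the ion channel P2RX1 from 2.08 to 7.28, the surrogate light chain gene VPREB3 from 2.78 to 10.3 and the phosphoinositide 3-kinase subunit PIK3R3 from 2.61 to 8.14. In the RefSeq annotation ENDOG overlaps SPOUT1, SCO2 overlaps NCAPH2 and TYMP, and PIK3R3 overlaps a readthrough gene, so reads near their ends may belong to the neighbours. The same holds for other genes given above, among them CDK7 (CCDC125), CCNH (RASA1), CCNA2 (EXOSC9), CDK4 (TSPAN31), MCM7 (AP4M1), FOXM1 (RHNO1), TYMS (ENOSF1), DDIT3 (MARS1), MTHFD2 (SLC4A5), SLC6A9 (CCDC24), MDM2 (CPM), TP53I3 (FAM228B), SQSTM1 (MGAT4B) and ABCB1 (RUNDC3B). Histones, tubulins, ribosomal proteins, HNRNPA1, NPM1 and CCL3 have near-identical copies or pseudogenes, and their values carry the same uncertainty.

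Noncoding genes made up a larger share of the rises than of the tested genes, a difference that was not tested. Of the 287 genes that rose 58 were long noncoding RNA genes, of which 444 were tested, so 13.1% of them rose and 11.5% fell, against 2.15% and 31.0% of 9644 protein-coding genes. Their median level in DMSO was lower, at 2.22 FPKM against 10.5. The filter counts treated libraries, so a gene under 1 FPKM in all DMSO libraries entered only where 3 treated libraries reached 1 FPKM. Of the 287 rises 158 were among the 2101 tested genes with the lowest DMSO levels, 0.09 to 2.5 FPKM. How much of the larger share of rises follows from the filter and the low level was not tested. LINC00861 was at 0.321, 0.423 and 0.723 FPKM and then at 8, 9.76 and 7.73 (log2 2.68, SE 0.25, adjusted p = 7e-06), and KANSL1-AS1 went from 0.595 to 9.74. Of 204 tested genes with an antisense symbol, a class chosen after the values were seen, 30 rose and 17 fell. The sources used here do not say whether counting used the strand, so reads of an antisense gene cannot be told from those of its partner.

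**Figure D4:**
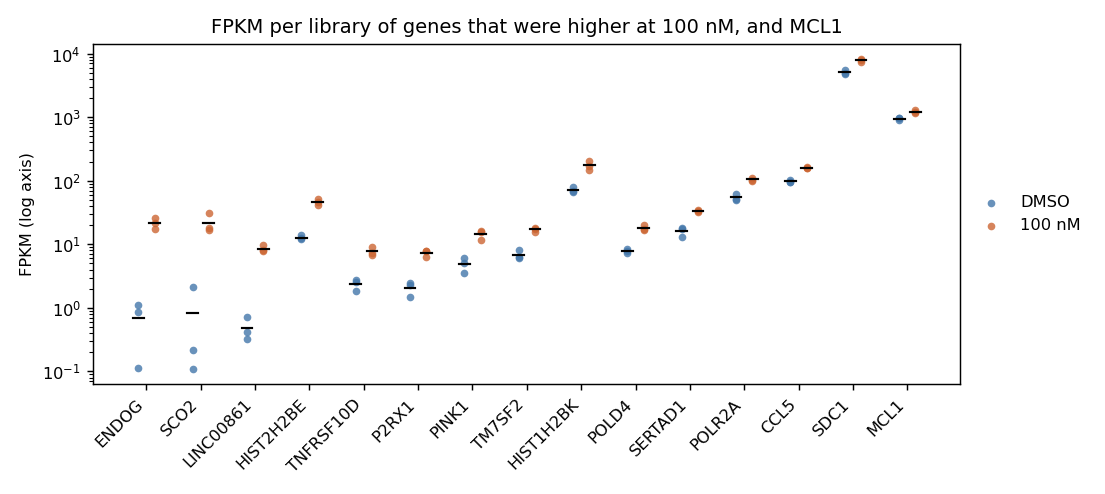
FPKM on a log axis of 14 genes that were called higher and of MCL1, which passed on the relative scale only, with 1 point per library (3 DMSO, 3 at 100 nM) and a line at each group mean. The treated points lie above the DMSO points for all 15 genes, with the widest gaps for ENDOG and SCO2.

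The libraries at 1000 nM show the same genes at a higher dose. The comparison of 1000 nM with 100 nM shares the 100 nM libraries with the comparison above, and 2460 genes (23.4%) were lower at 1000 nM on the deposited scale. Relative to the median gene 439 (4.18%) were lower and 175 (1.67%) higher. Without 1000 nM replicate 2, the library that stood apart, these counts were 2132, 292 and 93. CHAC1 was at 1.53 ± 0.0899 FPKM at 1000 nM and INHBE at 0.711 ± 0.167, with differences from 100 nM of −0.40 (adjusted p = 0.11) and −0.29 (adjusted p = 0.22). ATF4 was at 117 ± 27.3 FPKM against 150 ± 18.1 (−0.38, adjusted p = 0.17; relative 0.16, adjusted p = 0.38).

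Many division genes went lower still, though not all of them did so relative to the median gene. RRM2 fell from 41.2 ± 4.88 FPKM at 100 nM to 5.83 ± 1.06 at 1000 nM (log2 −2.63, adjusted p = 1.7e-05; relative −2.16, adjusted p = 4.6e-05), TOP2A from 27.2 to 8.19 and CDK1 from 14.3 to 5.03 (−1.36, adjusted p = 0.002; relative −0.90). HIST1H4C fell from 511 ± 71.2 to 112 ± 37.3 FPKM. Of the 24 licensing and MCM genes 14 were lower at 1000 nM relative to the median gene, and of the 23 stress response regulators 2 were lower and 4 higher. Without 1000 nM replicate 2 these were 12, 2 and 3. Also lower on that scale were 8 of 15 mitotic entry genes, 13 of 34 fork genes and 13 of 49 kinetochore and spindle genes. Without that library these became 8, 7 and 5. PLK1 did not pass (relative −0.38, adjusted p = 0.383). Among the p53 targets 15 of 34 were higher on that scale (13 without 1000 nM replicate 2), with GDF15, a secreted stress factor, at a relative difference of 1.72 (adjusted p = 0.00018) and CDKN1A at 0.77 (adjusted p = 0.0035), whose deposited difference passed without that library (0.47, adjusted p = 0.0306). SDC1 was at 5468 ± 1189 FPKM at 1000 nM, a difference of −0.54 on the deposited scale (adjusted p = 0.0498; −0.34, adjusted p = 0.024 without 1000 nM replicate 2), while relative to the median gene the adjusted p was 0.997. HIST2H2BE stood at 60.5 ± 12.8 FPKM against 46.5 ± 5.03 (0.35, adjusted p = 0.19; relative 0.88, adjusted p = 0.00081), and without 1000 nM replicate 2 the deposited difference passed (0.54, adjusted p = 0.0159).

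**Figure D5:**
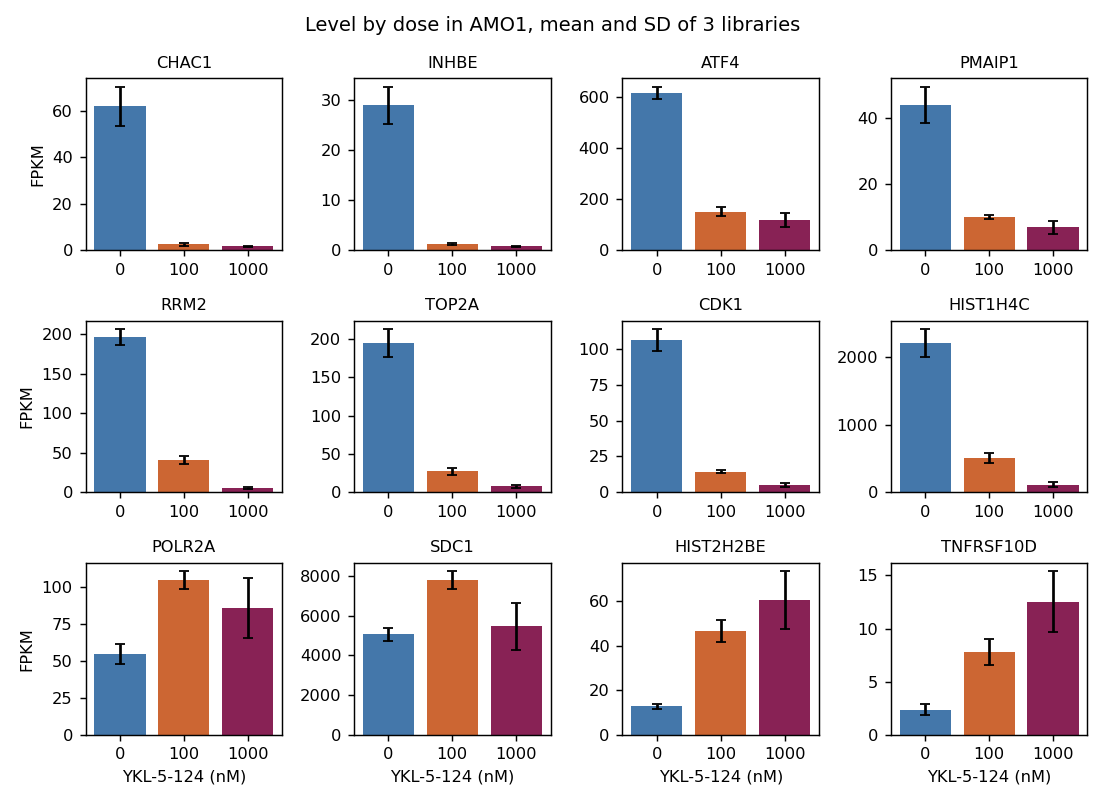
Level in AMO1 (vertical axis, FPKM) at 0, 100 and 1000 nM of 12 genes, as bars of the mean with the SD of 3 libraries. CHAC1, INHBE, ATF4 and PMAIP1 have no called difference between the 2 doses, RRM2, TOP2A, CDK1 and HIST1H4C fall further, and SDC1 and POLR2A have their highest mean at 100 nM.

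For the 10 genes named for every comparison, the AMO1 response at 100 nM was set against that of XG1 in a fit of all 18 libraries, in which 6.23% of 12792 genes differed between the lines. IRF4, CCND1 and ABCB1 had means under 1 FPKM in XG1, so their responses there can hardly be read. Only E2F1 among the 10 passed. It fell to 21.8% of DMSO in AMO1, while in XG1 it was at 11.2 ± 1.36 FPKM in DMSO and 7.22 ± 0.799 at 100 nM (AMO1 response minus XG1 response −1.53, SE 0.32, adjusted p = 0.0086; −1.34 to −1.73 without any 1 of the 12 libraries of the difference, adjusted p at most 0.0319, omissions chosen after seeing the data). MYC, which fell by log2 1.25 in AMO1, changed by −1.36 in XG1, and the difference of 0.11 did not pass (SE 0.54, adjusted p = 0.94). The relative difference for MCL1 was 0.58 (adjusted p = 0.056).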

How the data were processed

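Total RNA of cells lysed in trizol was read with QuantSeq 3' libraries, per the labels' protocols. Alignment with HISAT2 and quantification with Cuffnorm on hg19 are named in the submitters' processing notes, without versions, and the sources used here do not say whether strand was used. The authors deposited FPKM for 26249 genes and 92 spike-in sequences per library. The values hold no counts, so the depth is unknown and no counting interval is given. Spike-in sums were level across libraries, from which a rescaling to the spike-ins was inferred, and no header or label states it.

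Spike-in sequences were left out. Genes with at least 1 FPKM in at least 3 of the 9 AMO1 libraries (10503 genes, with 15746 not tested) were fitted on log2(FPKM + 1) with limma 3.58.1 in R 4.3.3, with a prior variance that follows the mean, over all 9 AMO1 libraries, and p-values were Benjamini-Hochberg adjusted over all tested genes. This scale understates changes of low genes. For relative values each library was first divided by its median ratio to the mean library. Summed FPKM was compared by an exact two-sided permutation test. The dose and line comparisons used the same model, the second over all 18 libraries. Numbers of replicates did not pair the samples. The fit was tested on simulated data. Promoters and gene classes came from RefSeq (GRCh38.p14), where 8471 of 10503 tested genes had a promoter, and no hg19 sequence was used.

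Genes are named by rule: 10 genes fixed for each comparison (ABCB1, CCND1, CCNH, CDK7, CDKN1A, E2F1, IRF4, MCL1, MNAT1 and MYC), core members of the 65 lists, the 5 largest called rises and falls of each list, members called against a list's majority, all members of lists of up to 12, and the 25 largest rises and falls with groups apart and a higher mean of at least 5 FPKM. From the 25 largest rises and falls, small nucleolar and several other classes of small RNA were left out by symbol. The comparison, lists and named genes were chosen with earlier results of these data known. Alternatives were the pseudocount, the filter, the libraries fitted, the block, the prior, the scaling and each library left out.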

Additional observations from a re-analysis of the deposited data

Results flagged for a closer look

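The response of E2F1, the transcription factor of the G1 to S transition, differed between the lines by the test of the difference itself. It changed by log2 −2.10 in AMO1 at 100 nM and by −0.57 in XG1, a difference of −1.53 (SE 0.32, adjusted p = 0.00857; relative −1.32, adjusted p = 0.00733). The DMSO levels differed too, at 38.1 ± 5.20 FPKM in AMO1 and 11.2 ± 1.36 in XG1 (mean ± SD, n = 3), and the part of this gap in the difference was not tested. Of the 10 genes compared in this way, the other 9 did not pass on the deposited scale (adjusted p of 0.141 to 0.941). Among them IRF4, CCND1 and ABCB1 were at 0.533, 0.642 and 0.216 FPKM in XG1 in DMSO, too low to show a fall there.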

How the results depend on the processing

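On the deposited scale the 287 higher and 3099 lower genes became 435 and 4598 with the 6 libraries alone, 148 and 1796 without a filter, 164 and 2678 with at least 5 FPKM in 3 libraries, and 454 and 4603 without 1000 nM replicate 2, an alternative chosen after seeing the data. Leaving out 1 library gave 184 to 218 higher and 1606 to 2419 lower. Relative to the median gene the 1473 higher and 1781 lower genes became 202 and 1405 without a filter, 2733 and 859 after division by summed FPKM, and 1096 to 1237 and 1313 to 1527 with 1 library left out. No gene called under any of these alternatives was called in the opposite direction (0 of 3386 deposited and 0 of 3254 relative calls). MZB1 was the named gene that changed sign past the threshold, at a relative −0.01 that became 0.23 after division by summed FPKM. The total at 100 nM was 60.71% to 62.96% of DMSO with 1 library left out and 67.26% without the 100 most abundant genes. With the replicate number as a block, 270 and 2640 genes passed on the deposited scale and 1418 and 1723 relative to the median gene. The numbers do not pair the samples: deviations of DMSO and 100 nM libraries with the same number correlated at −0.18 to −0.14, those of same-numbered pairs with a 1000 nM library at −0.075 to 0.12, and 1 of 9 libraries deviated most like one of its own number. Why these counts differ was not tested. Without counts, the depth behind low genes is unknown, and values near the lowest deposited FPKM of each library cannot be told from it.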

Other observations

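Gene groups not described above also fell in part. Of 25 tested purine and pyrimidine synthesis genes 20 were lower and 0 higher (relative 15 and 0; median −0.88), with 13 to 18 lower when 1 library was left out, fewest without DMSO replicate 2. Of 13 polyamine genes 7 were lower (53.8%), and of 18 small nucleolar RNA host genes 12 (66.7%). Of 48 translation factors 32 were lower (66.7%), which became 15 without DMSO replicate 2. Of 32 glycolysis genes 15 were lower (46.9%), 7 without DMSO replicate 2. Over all tested genes 29.5% were lower, and these 3099 falls became 1606 without DMSO replicate 2. Numbered zinc finger genes, a large family of repressors, had 33 of 242 lower and 1 higher (median −0.20). That is 13.6% lower against 29.5% of all tested genes, and 11 were lower without DMSO replicate 2. Whether zinc finger genes differ from other genes of the same DMSO level was not tested. Relative to the median gene 16 were higher and 8 lower, which became 9 without DMSO replicate 1 and 5 without DMSO replicate 2. DHRS2, a short-chain dehydrogenase, was at 120 FPKM in DMSO and 13.6 at 100 nM.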
